A study of Arabidopsis thaliana with 12 samples.

Results

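TORIN1, an inhibitor of the plant TOR kinase, was compared with AZD8055 and KU63794, which were pooled as structurally related morpholine compounds. All 3 TORIN1 libraries were set against all 6 libraries of the other compounds, with each of those compounds weighted equally, and the 3 mock libraries gave the untreated level. These 12 libraries are all libraries of the series. Every library held shoots of Arabidopsis thaliana Col-0 seedlings grown under continuous light to 4 days after germination and then moved for 8 h to fresh plates with a compound or with its solvent DMSO (mock). The plates held 10 µM TORIN1, 2 µM AZD8055 or 20 µM KU63794, so the treatments are compared as applied, and compound and dose cannot be told apart. Of 33602 genes counted in polyadenylated RNA, 17933 had enough counts to be tested. Library totals ran from 7706957 to 14696645 counts. The labels name no separate cultures or batches of seedlings behind the replicates, and a p-value here measures only the spread between these samples.

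TOR is a protein kinase that couples nutrient, sugar and hormone supply to growth. It promotes the making of ribosomes and of the translation machinery and holds back autophagy. In young shoots these processes run alongside the building of chloroplasts, whose antenna proteins are encoded by nuclear genes that respond to light and sugar. Cytokinin, a growth hormone of shoots, acts through a phosphorelay whose type-A response regulators are induced by the hormone and dampen its signal.

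Promoters of 5 genes that separated the compounds are shown first, as examples from both sides of the comparison. Each is the 250 bases before the annotated gene start in the RefSeq annotation of TAIR10.1, written 5′ to 3′ on the strand of the gene. BBC1 and RPL3B, ribosomal protein genes, and HD2D, a histone deacetylase of the plant HD2 family, were higher with TORIN1. LHB1B1 and LHB1B2, antenna protein genes that lie next to each other in opposite orientation, were lower. Capitals mark matches to 9 motifs searched on both strands: the telobox AAACCCTA, the site II core TGGGCC and its variant TGGGCT, the G-box CACGTG, the evening element AAAATATCT, the W-box forms TTGACC and TTGACT, the GCC box GCCGCC and the abscisic acid element ACGTGTC. On the other strand TGGGCC reads GGCCCA and its variant reads AGCCCA, and no motif overlapped another in these windows. The windows lie on chr3:18168701-18168950 (minus strand) for BBC1, chr1:22723153-22723402 (minus) for RPL3B and chr2:11861556-11861805 (plus) for HD2D. Those of LHB1B1 and LHB1B2 lie on chr2:14524357-14524606 (plus) and chr2:14523569-14523818 (minus).
BBC1: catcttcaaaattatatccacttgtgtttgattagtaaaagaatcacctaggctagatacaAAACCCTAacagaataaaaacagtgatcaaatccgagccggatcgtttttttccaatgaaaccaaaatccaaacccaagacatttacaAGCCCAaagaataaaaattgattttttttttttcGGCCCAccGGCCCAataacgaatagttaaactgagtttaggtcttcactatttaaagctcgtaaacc
RPL3B: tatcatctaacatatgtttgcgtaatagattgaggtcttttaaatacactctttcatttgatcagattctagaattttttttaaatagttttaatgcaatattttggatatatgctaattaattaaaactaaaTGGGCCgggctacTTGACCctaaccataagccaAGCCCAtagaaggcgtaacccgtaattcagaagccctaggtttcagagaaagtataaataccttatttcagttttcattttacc
HD2D: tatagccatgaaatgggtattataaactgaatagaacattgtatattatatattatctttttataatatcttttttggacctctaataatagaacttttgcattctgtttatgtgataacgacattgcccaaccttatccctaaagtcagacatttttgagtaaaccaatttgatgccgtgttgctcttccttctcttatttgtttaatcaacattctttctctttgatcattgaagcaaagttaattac
LHB1B1: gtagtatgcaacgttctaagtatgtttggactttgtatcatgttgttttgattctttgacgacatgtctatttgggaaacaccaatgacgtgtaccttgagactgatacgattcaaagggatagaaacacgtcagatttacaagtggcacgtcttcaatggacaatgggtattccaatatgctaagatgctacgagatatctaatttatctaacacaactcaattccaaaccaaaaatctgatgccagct
LHB1B2: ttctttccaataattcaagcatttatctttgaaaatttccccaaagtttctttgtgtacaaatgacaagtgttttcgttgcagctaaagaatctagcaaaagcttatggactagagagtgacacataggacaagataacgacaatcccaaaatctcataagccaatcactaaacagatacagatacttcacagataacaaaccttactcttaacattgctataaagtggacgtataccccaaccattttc
The BBC1 window held 4 matches, and 3 were found in that of RPL3B. None of the 9 motifs was found in the windows of HD2D, LHB1B1 and LHB1B2, which says only that these letters are not there. TGGGCC, the core of a motif known from promoters of ribosomal protein and other growth genes, was in 32.77% of 592 promoters of genes higher with TORIN1, in 14.75% of 122 promoters of genes lower and in 17.22% of the 17777 promoters of tested genes. For TGGGCT the shares were 23.99%, 9.02% and 14.69%, and for AAACCCTA, the telobox of translation genes, 7.26%, 0.82% and 3.6%. Of the 217 promoters of tested cytosolic ribosomal protein genes, 70.05% held TGGGCC or TGGGCT. With these left out, 34.42% of the other 491 promoters of higher genes held either motif, against 23.15% over all tested genes, ribosomal protein genes included. Shares among all genes that AZD8055 and KU63794 lowered against mock were not taken. Whether the motifs mark such genes in general was thus not tested. The G-box CACGTG was in 5.07%, 7.38% and 7.59% of higher, lower and all promoters, and the evening element AAAATATCT in 2.03%, 5.74% and 2.53%. These shares are descriptions and were not tested.

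With TORIN1, 594 genes were higher and 127 lower than with the mean of AZD8055 and KU63794 (edgeR's quasi-likelihood test, Benjamini-Hochberg adjusted p below 0.05, two-sided), which is 3.31% and 0.708% of the genes tested and 4.02% together. Most of the higher genes were ones that AZD8055 and KU63794 had lowered. Of the 594, 545 were below mock with the mean of AZD8055 and KU63794, 4 were above and 45 were not called against mock. The lower genes were mixed, with 47 above mock, 8 below and 72 not called with that mean. Over all tested genes, 18.1% were below mock and 15.4% above it with that mean, and 10.3% and 9.87% with TORIN1. Differences were small among the higher genes, at a median of 0.48 log2 units (at least 0.25), and 15 of them differed by more than 1. The lower genes differed by a median of 0.83 (at least 0.31), with 42 over 1. The median difference over all tested genes was 0.01. A 95% interval, not adjusted for the number of genes, typically reached 0.31 to either side (median over genes), so smaller differences were mostly not detectable. In edgeR's test 3622 genes had an unadjusted p below 0.05 and 721 passed after adjustment, so many differences somewhat larger than 0.31 did not pass either.

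All 3 TORIN1 libraries lay above the whole range of the 6 other libraries in 550 of the 594 higher genes and below it in 115 of the 127 lower ones. The same held for 6.90% and 3.48% of all tested genes, called or not. With each compound taken alone and p-values adjusted over all genes and all 3 pairs of compounds, TORIN1 was above AZD8055 in 125 genes (0.697% of those tested) and below it in 43 (0.240%). It was above KU63794 in 154 (0.859%) and below it in 40 (0.223%). The calls held against both compounds for 58 higher and 14 lower genes. AZD8055 and KU63794 differed from each other in 13 genes, 11 higher (0.0613%) and 2 lower (0.0112%) with AZD8055.

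The counts rested on single TORIN1 libraries. Without TORIN1 replicate 2, 48 genes were higher and 21 lower, without replicate 3, 42 and 7, and without replicate 1, 677 and 214. Without AZD8055 replicate 1 the higher genes numbered 895, and without KU63794 replicate 2 they numbered 389. Mock has no weight in the comparison but enters the estimate of spread, and the lower genes numbered 78 without mock replicate 2 and 80 without mock replicate 1. With the mock libraries left out of the fit altogether, 121 were higher and 43 lower. With upper-quartile scaling the split was 358 to 150, so 70.5% of called genes were higher in place of 82.4%. Of 133 called genes eligible to be named here, 14 kept the call with each library left out. Another 74 lost it without TORIN1 replicate 2 or 3 but kept it with any other library left out, and the remaining 45 lost it without other libraries too. Against both compounds taken singly, 29 of the 133 were called and 104 were not. Among the 104 were RPS6A, NUC-L1, CPN60A, SCA3, LOS2, ABCC9, PSAG, THE1, FLA2, AZI1 and RUP1, described below. With mock left out of the fit, 59 of the 133 kept the call. The log2 differences of these 133 kept their direction in every alternative that gave them a value. Since the genes were chosen for separated libraries, leaving out 1 library could hardly turn a direction, so this is no added support.

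**Figure D1:**
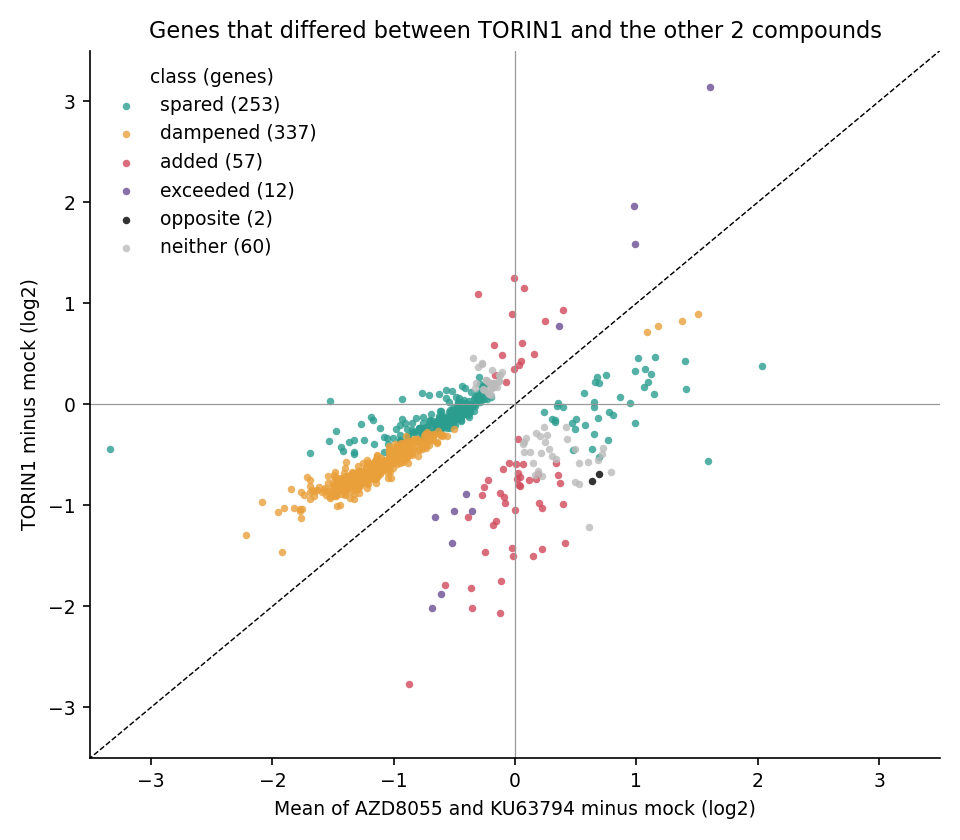
Log2 difference from mock with the mean of AZD8055 and KU63794 (horizontal axis) and with TORIN1 (vertical axis) for 719 of the 721 called genes, coloured by class; 2 genes lie outside the axes and the dashed line marks equal differences. Most points lie on the left, where AZD8055 and KU63794 lowered a gene, and above the line. Both axes use the same mock libraries.

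Set against mock, the higher genes fell into mainly 2 classes. In 333 (56.06%) TORIN1 lowered the gene too, but by less, with medians of -1.16 log2 units with the mean of AZD8055 and KU63794 and -0.66 with TORIN1. In 212 (35.69%) TORIN1 spared the gene, in the sense that it was called against mock with the mean of the other compounds (median -0.57) and not with TORIN1 (median -0.14). TORIN1 raised 15 genes that the other compounds left uncalled, went further in the same direction in 4, and 30 were called against mock with neither. Of the 127 lower genes, 42 were lowered with TORIN1 alone, at a median of -0.95 against mock, and 41 were raised by the other compounds and spared by TORIN1, at medians of 0.69 and -0.01. Another 30 were called with neither, 8 were lowered further with TORIN1, 4 were raised less, and 2 went in opposite directions. The AZD8055 and KU63794 libraries enter both comparisons with opposite signs, and all comparisons with mock share its 3 libraries, so these classes are a description. A call against mock with one treatment and not the other is no test of their difference, which is the comparison of TORIN1 with the mean.

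**Figure D2:**
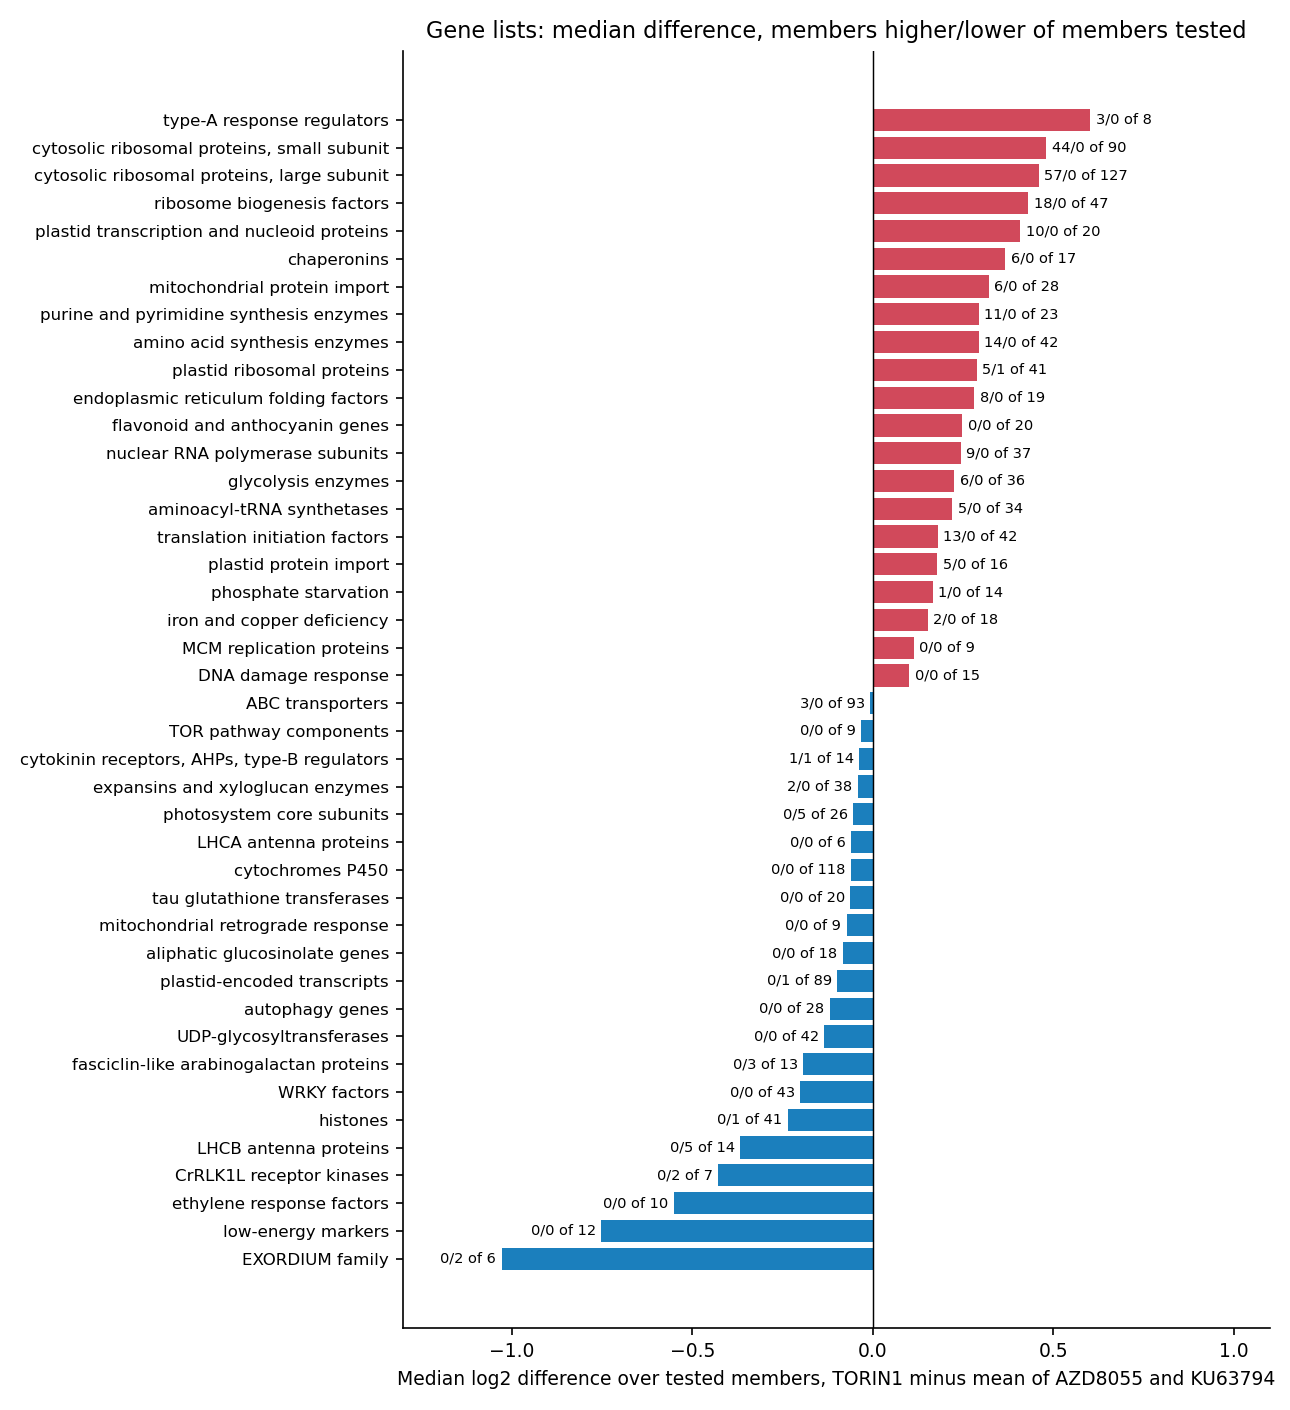
Median log2 difference of TORIN1 from the mean of AZD8055 and KU63794 for each gene group with at least 5 tested members, seed storage markers left out. The numbers of members called higher and lower stand beside the bars. Ribosome, translation, chaperonin, organelle import and biosynthesis groups lie to the right of 0, and antenna, receptor kinase and EXORDIUM groups to the left. Low-energy markers and ethylene response factors, with 0 members called, also lie to the left, and photosystem core and plastid-encoded groups slightly so.

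The counts of group members here and below are to be read beside the shares over all genes tested, 3.31% higher and 0.708% lower. Ribosomal protein genes made up the most numerous group on the higher side. Of 127 tested genes for the large subunit of the cytosolic ribosome, 57 were higher with TORIN1 and 0 lower, with a median difference of 0.46 log2 units. Of 90 for the small subunit, 44 were higher and 0 lower, with a median of 0.48. Without TORIN1 replicate 2 the counts were 8 and 5, and without replicate 3 they were 10 and 10, while the medians stayed between 0.40 and 0.53 with each library left out. The same groups were nearly all below mock with the mean of AZD8055 and KU63794, in 121 and 89 members. Measured as the mean over members of log2 CPM (counts scaled to the size of the library) relative to mock, the large-subunit group stood at -1.02, -1.11 and -1.49 in the AZD8055 libraries, -1.16, -1.45 and -1.11 with KU63794 and -0.77, -0.71 and -0.81 with TORIN1. The TORIN1 libraries were thus below mock and above each of the 6 others. In these bulk samples, less RNA per cell and fewer cells of a type that makes it cannot be told apart.

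RPL3B (AT1G61580, chr1:22720560-22723152 in TAIR10.1), one of the genes for ribosomal protein L3, stood at 29, 35.6 and 30.8 CPM in mock, 23.5, 28.4 and 27.1 with TORIN1, 12.4, 7.22 and 12.4 with KU63794 and 12.9, 12.4 and 11.3 with AZD8055. Every TORIN1 library was above every AZD8055 and KU63794 library, as the choice of named genes required, and below every mock library. The difference was 1.20 log2 units (SE 0.14, edgeR adjusted p = 0.00169), and the call held against each compound alone and with any library left out. BBC1 (AT3G49010), another large-subunit protein gene, stood at 288, 295 and 269.7 CPM in mock, 166, 179 and 173 with TORIN1, 111, 73.4 and 82 with KU63794 and 109.6, 84.6 and 58.6 with AZD8055. Its TORIN1 libraries lay between mock and the others without overlap, 0.99 log2 units above the mean of the others (SE 0.16, edgeR adjusted p = 0.00813). The small-subunit gene RPS6A (AT4G31700), which encodes the ribosomal protein phosphorylated downstream of TOR, was 0.77 higher with TORIN1 (SE 0.14, edgeR adjusted p = 0.0104) at 158, 174 and 159 CPM against 67.5 to 118 in the 6 others. Without TORIN1 replicate 2 or 3 the adjusted p was 0.053 or 0.0515 for BBC1 and 0.071 or 0.0591 for RPS6A. Genes for cytosolic ribosomal proteins come in near-identical copies, and how the authors' counting split reads between copies is not given in the sources used here.

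Ribosome biogenesis factors followed, with 18 of 47 tested higher, 0 lower and a median of 0.43. NUC-L1 (AT1G48920), the nucleolin of the nucleolus, stood at 456, 414 and 366 CPM with TORIN1, 266, 255 and 316 with KU63794 and 269.6, 312 and 212 with AZD8055, against 648 to 689 in mock. Its TORIN1 libraries were above all 6 others and below mock, by 0.60 log2 units over the mean (SE 0.12, edgeR adjusted p = 0.0119, 0.0746 without TORIN1 replicate 2). Among translation initiation factors 13 of 42 were higher and 0 lower (median 0.18). eIFiso4G2 (AT2G24050), a scaffold that brings the ribosome to capped mRNA, stood at 27.3, 31.2 and 31.8 CPM in mock, 25.1, 25.1 and 27.6 with TORIN1, 13.3, 15.5 and 15.8 with KU63794 and 16.7, 16.3 and 15.7 with AZD8055. TORIN1 overlapped the lower end of mock and was clear of the others, by 0.74 (SE 0.09, edgeR adjusted p = 0.00187), a call that held with any library left out. Nuclear RNA polymerase subunits had 9 of 37 higher and 0 lower (median 0.24), and aminoacyl-tRNA synthetases 5 of 34 higher and 0 lower (median 0.22). Without TORIN1 replicate 2 or 3 the count for ribosome biogenesis factors was 1 or 2, while its median was 0.42 or 0.45. The same omissions left 2 or 1 initiation factors, 0 or 1 polymerase subunits and 0 synthetases called higher, and without TORIN1 replicate 1 the synthetases had 8.

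**Figure D3:**
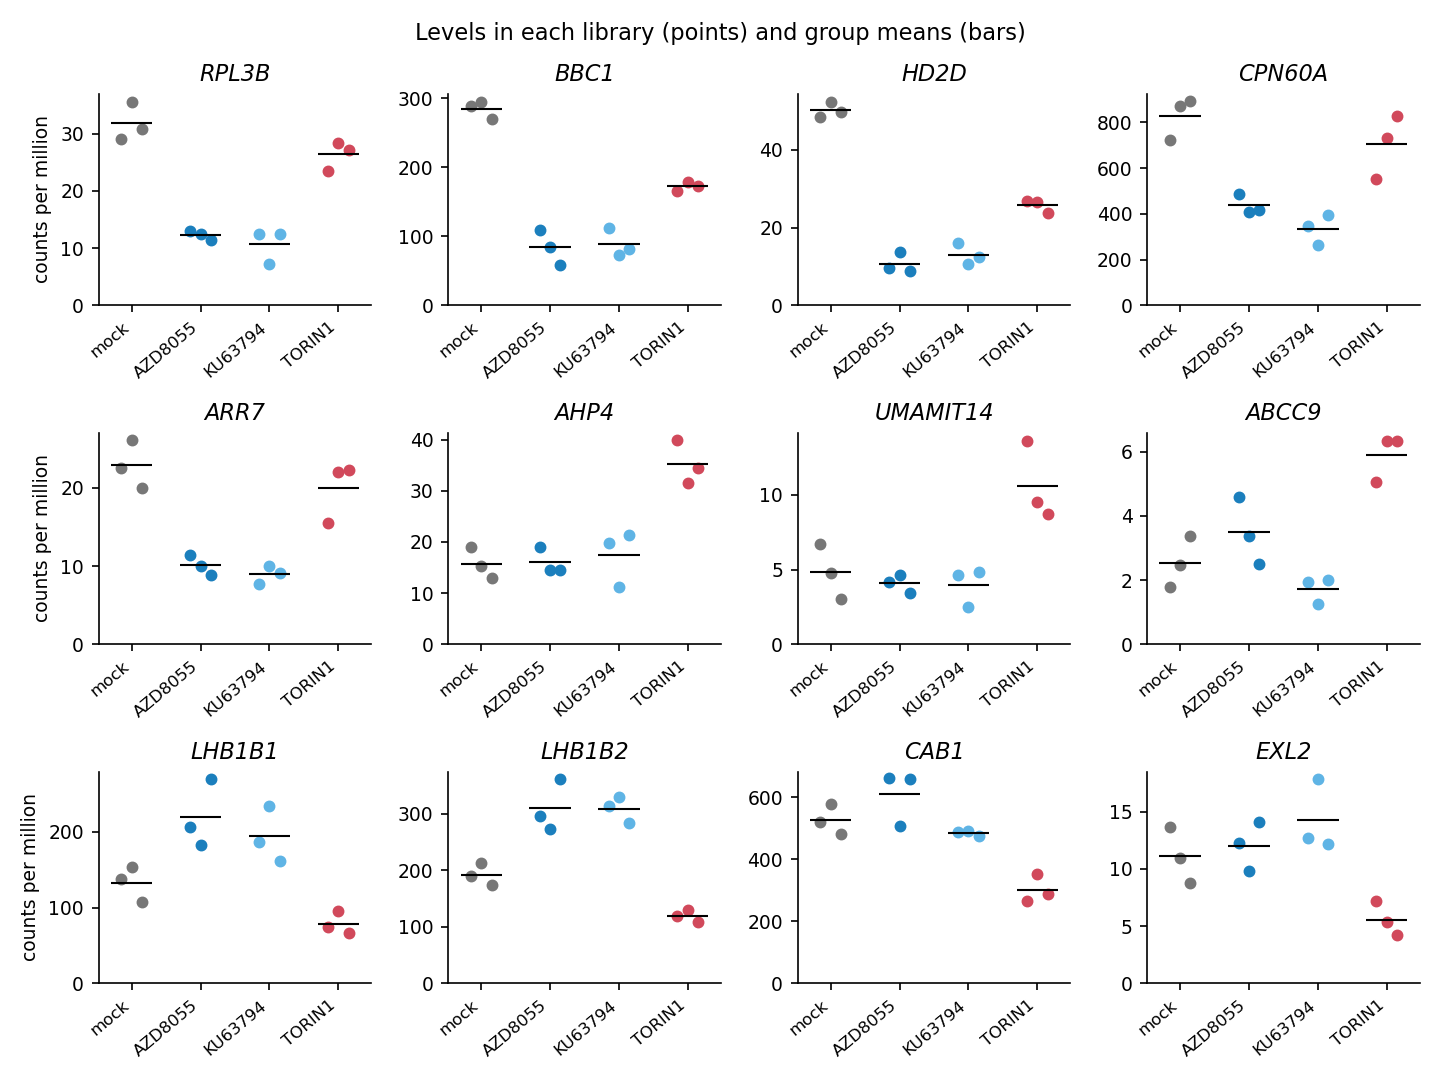
Level in CPM (linear axis from 0) of 12 genes in each of the 12 libraries, grouped by treatment. In RPL3B, BBC1, HD2D, CPN60A and ARR7 the TORIN1 points lie above those of AZD8055 and KU63794; in LHB1B1, LHB1B2, CAB1 and EXL2 they lie below all other points; in AHP4, UMAMIT14 and ABCC9 they lie above all others.

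Of the 4 genes of the HD2 family, plant histone deacetylases of the nucleolus, HD2D and HD2B were higher with TORIN1. HD2D (AT2G27840) stood at 48.5, 52.3 and 49.7 CPM in mock, 26.9, 26.6 and 23.7 with TORIN1, 15.9, 10.7 and 12.5 with KU63794 and 9.71, 13.6 and 8.86 with AZD8055. The 3 sets of levels did not overlap, with TORIN1 in the middle, 1.12 log2 units above the other compounds (SE 0.13, edgeR adjusted p = 0.00169) and 0.96 below mock on the same scale. HD2B (AT5G22650) was 0.71 higher (SE 0.15, edgeR adjusted p = 0.0214), and each TORIN1 replicate was needed for the call (adjusted p = 0.0535, 0.113 and 0.0707 without replicates 1, 2 and 3). HD2A differed by 0.79 (95% interval 0.33 to 1.24, edgeR adjusted p = 0.0559) and HD2C by 0.18 (-0.04 to 0.41, 0.358), and neither passed.

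Chaperonins, the barrel-shaped complexes that fold imported proteins in chloroplasts and mitochondria, had 6 of 17 members higher and 0 lower, with a median of 0.37. Cpn60beta2 (AT3G13470), a plastid chaperonin subunit, stood at 611, 690.2 and 770.0 CPM in mock, 433, 569 and 597 with TORIN1, 277, 186 and 272 with KU63794 and 322, 297 and 259 with AZD8055. TORIN1 lay above all 6 others and below mock, by 0.99 over the mean (SE 0.14, edgeR adjusted p = 0.00316), a call that held with any library left out. Its partner CPN60A (AT2G28000) stood at 722, 869.6 and 894 CPM in mock, 551, 729 and 828 with TORIN1, 346, 262 and 393 with KU63794 and 487, 408 and 415 with AZD8055. Here TORIN1 overlapped mock and not the other compounds, with a difference of 0.88 (SE 0.14, edgeR adjusted p = 0.00654, 0.0515 without TORIN1 replicate 3). The chaperonins called higher numbered 2 or 1 without TORIN1 replicate 2 or 3.

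Of 20 plastid transcription and nucleoid proteins, 10 were higher and 0 lower (median 0.41), among them SCA3 (AT2G24120), the plastid's phage-type RNA polymerase, which was 0.61 higher (SE 0.11, edgeR adjusted p = 0.0111) at 34.9, 36 and 34.1 CPM against 18.7 to 27.5 in the 6 others. Plastid protein import had 5 of 16 higher and 0 lower (median 0.18), with 10 of the 16 differences above 0. As a group it was not closer to mock than with AZD8055. Its median against mock was -0.46 with TORIN1, -0.24 with AZD8055 and -0.63 with KU63794. The group levels of the TORIN1 libraries (-0.45 to -0.35) lay within the range of AZD8055 (-0.52 to -0.23) and above that of KU63794 (-0.66 to -0.55). TIC40 (AT5G16620), a component of the import machinery of the inner envelope, was 0.64 higher (SE 0.10, edgeR adjusted p = 0.00635), with all 3 libraries above the 6 others. Plastid ribosomal proteins had 5 of 41 higher and 1 lower (median 0.29), counts of 17 and 1 without TORIN1 replicate 1 and of 0 and 0 without replicate 2 or 3. Mitochondrial protein import had 6 of 28 higher and 0 lower (median 0.32). Folding factors of the endoplasmic reticulum had 8 of 19 higher and 0 lower (median 0.28), with the chaperone BIP1 (AT5G28540) at 167, 177 and 182 CPM in mock, 160.3, 183 and 189.5 with TORIN1, 109, 102 and 131 with KU63794 and 126, 122 and 134 with AZD8055. BIP1 with TORIN1 overlapped mock and lay above all 6 libraries of the other compounds, 0.56 above their mean (SE 0.09, edgeR adjusted p = 0.00635). SCA3 lost its call without TORIN1 replicate 2 (adjusted p = 0.072) or 3 (0.0605), and TIC40 and BIP1 without replicate 3 (0.0515 each). Leaving out TORIN1 replicate 2 or 3 left 0 genes called higher in plastid transcription and in mitochondrial import, 1 or 0 in plastid import and 1 in endoplasmic reticulum folding. Mitochondrial import had 3 higher without TORIN1 replicate 1.

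Biosynthesis enzymes were also represented. Purine and pyrimidine synthesis had 11 of 23 tested enzymes higher and 0 lower (median 0.29), and amino acid synthesis 14 of 42 higher and 0 lower (median 0.29). CARA (AT3G27740), the small subunit of the carbamoyl phosphate synthetase that feeds pyrimidine and arginine synthesis, stood at 82.3, 86.5 and 88 CPM with TORIN1, 58, 55.7 and 65 with KU63794 and 65, 61.2 and 54.2 with AZD8055, against 112 to 129.8 in mock. It was thus in between, 0.52 above the other compounds (SE 0.08, edgeR adjusted p = 0.00635, 0.0515 without TORIN1 replicate 3). Glycolysis had 6 of 36 enzymes higher and 0 lower (median 0.23). Of the 6, 3 were spared and 3 were among the genes that TORIN1 raised and the other compounds left uncalled. With TORIN1, 10 of the 36 were above mock and 2 below. LOS2 (AT2G36530), enolase, was 0.58 higher with TORIN1 (SE 0.10, edgeR adjusted p = 0.00811, 0.061 without TORIN1 replicate 2 and 0.0545 without replicate 3) and was among the genes TORIN1 spared. AT3G51870, annotated as a mitochondrial substrate carrier family protein, had the smallest p among the higher genes named here, at 38.5, 41.5 and 41.6 CPM in mock, 20.6, 22.3 and 24.7 with TORIN1, 11.5, 11 and 13.4 with KU63794 and 10.8, 11.4 and 9.72 with AZD8055. Its 3 levels were separate, with a difference of 1.00 (SE 0.10, edgeR adjusted p = 0.000349) that held with any library left out. Without TORIN1 replicate 2 or 3, 1 or 0 purine and pyrimidine enzymes, 0 amino acid enzymes and 0 glycolysis enzymes were called, and the medians of the first 2 groups were 0.31 or 0.27 and 0.28 or 0.24.

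**Figure D4:**
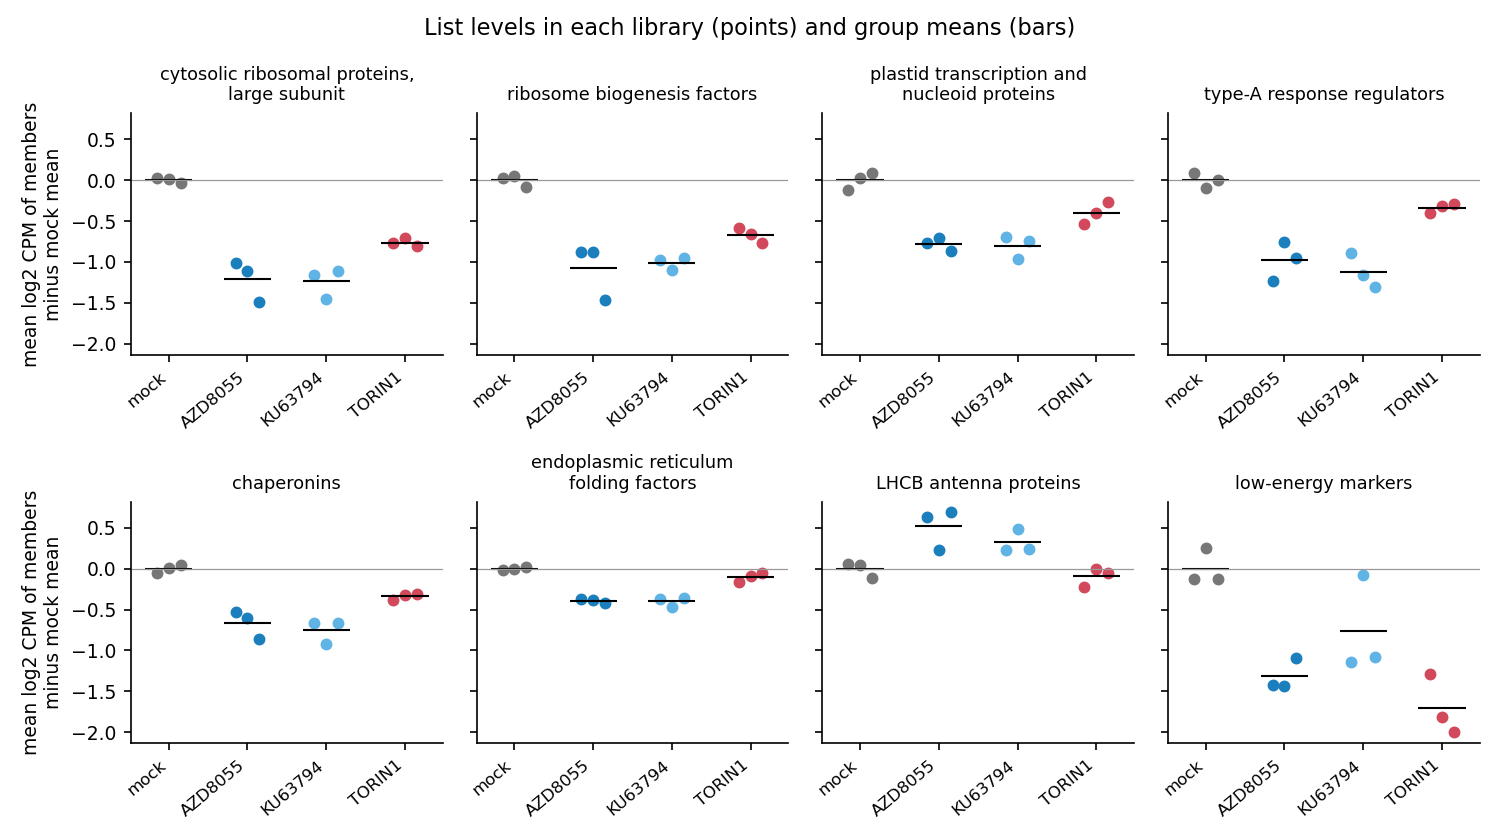
Mean over the members of 8 gene groups of log2 CPM relative to the mock mean, 1 point per library. TORIN1 points of the ribosomal protein, ribosome biogenesis, plastid transcription, chaperonin and endoplasmic reticulum groups lie between mock and the other compounds. Those of type-A response regulators do likewise. Those of the LHCB group lie at or below mock while the other compounds lie above it.

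Type-A response regulators of the cytokinin pathway were closer to mock with TORIN1. Of 8 tested, 3 were higher than with the other compounds and 0 lower, with a median of 0.60 (0.36 to 0.62 with each library left out). ARR7 (AT1G19050) stood at 22.5, 26.2 and 19.9 CPM in mock, 15.6, 22.1 and 22.3 with TORIN1, 7.66, 10.1 and 9.13 with KU63794 and 11.4, 9.98 and 8.86 with AZD8055. Its TORIN1 libraries overlapped mock and lay above all 6 others, by 1.07 (SE 0.14, edgeR adjusted p = 0.00275). ARR4 (AT1G10470) stood at 113, 102 and 111 CPM in mock, 85.5, 106 and 105 with TORIN1, 54.3, 59.5 and 45.5 with KU63794 and 54.3, 66.6 and 63 with AZD8055. It too overlapped mock and was clear of the other compounds, by 0.79 (SE 0.10, edgeR adjusted p = 0.00187), and both calls held with any library left out. ARR6 (AT5G62920), at 9.72, 11.8 and 7.7 CPM with TORIN1 against 4.15 to 5.58 in the 6 others, differed by 1.02 (SE 0.16, edgeR adjusted p = 0.00709, 0.0558 without TORIN1 replicate 2).

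The other type-A genes did not pass. ARR5 differed by 0.41 (95% interval 0.08 to 0.75, edgeR adjusted p = 0.146), ARR9 by 0.28 (-0.01 to 0.57, 0.269), ARR8 by 0.25 (0.03 to 0.48, 0.192), ARR16 by 0.21 (-0.24 to 0.66, 0.63) and the scarcely counted ARR15 by 1.64 (-0.14 to 3.41, 0.287). Their TORIN1 libraries overlapped the range of the others. Among 14 receptors, phosphotransfer proteins and type-B regulators of the same pathway, the phosphotransfer protein gene AHP4 was higher, the type-B regulator gene ARR2 was lower and the other 12 did not pass. Each direction held 7.14% of this group, against 3.31% higher and 0.708% lower over all genes. AHP4 (AT3G16360) stood at 19.1, 15.2 and 12.9 CPM in mock, 40, 31.6 and 34.4 with TORIN1, 19.8, 11.2 and 21.4 with KU63794 and 19.1, 14.6 and 14.5 with AZD8055. The TORIN1 libraries stood above all 9 others, 1.08 over the other compounds (SE 0.18, edgeR adjusted p = 0.00828, 0.0515 without TORIN1 replicate 3) and 1.15 over mock (edgeR adjusted p = 0.0024). ARR2 differed by -0.46 (SE 0.12, edgeR adjusted p = 0.0433) and was not called with any of 10 libraries left out, at up to 0.236 without TORIN1 replicate 3.

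Genes that TORIN1 raised on its own included transporters. UMAMIT14 (AT2G39510), an exporter of amino acids, stood at 6.71, 4.76 and 3 CPM in mock, 13.6, 9.52 and 8.7 with TORIN1, 4.61, 2.51 and 4.81 with KU63794 and 4.16, 4.64 and 3.44 with AZD8055. All TORIN1 libraries were above all 9 others. The difference from the other compounds was 1.39 (SE 0.24, edgeR adjusted p = 0.0083) and that from mock 1.09, and the call against the compounds held with any library left out. ABCC9 (AT3G60160), an ABC transporter, likewise stood at 5.06, 6.34 and 6.33 CPM with TORIN1, above the 1.26 to 4.6 of the 6 others, with a difference of 1.26 (SE 0.24, edgeR adjusted p = 0.0108, and 0.0716 or 0.0707 without TORIN1 replicate 2 or 3). Across 93 tested ABC transporter genes, 3 were higher and 0 lower, 3.23% against the 3.31% of all genes. GA3OX1 (AT1G15550), which makes active gibberellin, was spared, at 2.26, 2.85 and 1.7 CPM in mock, 1.56, 1.7 and 3.66 with TORIN1, 0.625, 0.393 and 0.664 with KU63794 and 1.13, 0.988 and 1.2 with AZD8055. TORIN1 replicate 3 was the highest of all 12 libraries, and the difference of 1.56 (SE 0.33, edgeR adjusted p = 0.0187) had an adjusted p of 0.225 without it and 0.0578 without replicate 2.

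On the lower side the antenna proteins of photosystem II stood out. Of 14 LHCB genes, 5 were lower with TORIN1 and 0 higher, with a median of -0.37 (-0.46 to -0.26 with each library left out), and all 5 encode LHCB1 proteins, the major antenna subunit. LHB1B1 (AT2G34430, chr2:14524607-14525918) stood at 138, 153 and 108 CPM in mock, 74.6, 95.5 and 66.1 with TORIN1, 187, 234 and 162 with KU63794 and 207, 183 and 269.6 with AZD8055. Each of the 6 libraries of the other compounds was above mock and each TORIN1 library below it. The difference was -1.40 log2 units (SE 0.17, edgeR adjusted p = 0.00312). Its neighbour LHB1B2 (AT2G34420, chr2:14522524-14523568) stood at 189, 212 and 173 CPM in mock, 120.0, 129 and 109 with TORIN1, 314, 329 and 283 with KU63794 and 297, 273 and 362 with AZD8055. It showed the same order without overlap, with a difference of -1.38 (SE 0.11, edgeR adjusted p = 5.35e-05). Against mock LHB1B1 changed by 0.63 with the mean of AZD8055 and KU63794 and by -0.76 with TORIN1, and LHB1B2 by 0.69 and -0.69, and these were the only 2 called genes that passed in opposite directions. Their promoters, shown above, held none of the 9 motifs. Of the 50-base windows of their gene sequences, 13.62% of those of LHB1B1 and 17.27% of those of LHB1B2 are shared. A read lying wholly within such a stretch would fit both genes, and how many reads did so was not examined.

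Another cluster of LHCB1 genes, CAB1, CAB2 and CAB3 on chromosome 1, fell below mock with TORIN1 and was not called against mock with the mean of the others. CAB1 (AT1G29930) stood at 521, 579.9 and 483 CPM in mock, 265, 354 and 287 with TORIN1, 488, 492 and 475 with KU63794 and 664, 507 and 658 with AZD8055. TORIN1 was below all 9 other libraries, by 0.85 log2 units under the other compounds (-0.85, SE 0.12, edgeR adjusted p = 0.00316). CAB2 differed by -0.89 (SE 0.12, edgeR adjusted p = 0.00316) and CAB3 by -0.75 (edgeR adjusted p = 0.00635). CAB3 was outside the rule for naming genes and was chosen after its values were seen. The calls of LHB1B1, LHB1B2, CAB1 and CAB2 held with any library left out. CAB1 and CAB2 share 14.9% and 13.91% of their 50-base windows with each other and CAB1 shares 0 with LHB1B1 or LHB1B2.

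The other antenna genes differed less and did not pass. LHCB3 differed by -0.27 (95% interval -0.55 to 0.02), LHCB5 by -0.05 (-0.30 to 0.19), LHCB2.1 by -0.37 (-0.74 to -0.01) and LHCB4.3, with the highest difference of the 14, by 0.27 (-0.08 to 0.62). None of the 6 LHCA genes of the photosystem I antenna passed, with a median of -0.06. Of 26 nuclear genes for photosystem core subunits, 5 were lower and 0 higher, namely PSBX, PSAG, PSB27, PSAD-2 and PSAD-1, the last chosen after its values were seen, while the group's median was -0.05. PSAG (AT1G55670), a photosystem I subunit, stood at 28.5, 35.8 and 25.2 CPM with TORIN1, 58, 39.7 and 49.1 with KU63794 and 65.7, 51.4 and 76.8 with AZD8055, against 40.3 to 50 in mock. TORIN1 was below all 9 others, by -0.92 against the other compounds (SE 0.16, edgeR adjusted p = 0.00855). Without TORIN1 replicate 3 PSAG had an adjusted p of 0.0627 and 0 photosystem core genes were called, and without replicates 1 and 2 in turn 2 and 1 were. Transcripts of the plastid genome made up 0.230% to 0.274% of counts with TORIN1, 0.248% to 0.368% with the other compounds and 0.288% to 0.325% in mock in this polyadenylated RNA. Of these, 1 of 89 was called, ATCG00750, lower, which is 1.12% against the 0.708% of all genes. Mitochondrial transcripts made up only 0.016% to 0.025% of counts with TORIN1, 0.023% to 0.032% with the other compounds and 0.021% to 0.032% in mock. Of 146 mitochondrial IDs 4 were tested, and of these ATMG00020 and ATMG01390 were lower. These 2 calls do not describe mitochondrial gene expression as a whole. ATMG00020 differed by -1.38 (SE 0.20, edgeR adjusted p = 0.00709), at 19.1 to 30.6 CPM with TORIN1, below every other library, and kept its call with any library left out. ATMG01390 lost its call without TORIN1 replicate 2 (0.0692) or 3 (0.0627), and ATCG00750 without replicate 3 (0.0515).

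Cell-surface and cell-wall genes were examined in 4 lists. Of 38 expansins and xyloglucan enzymes, which loosen and remodel the wall, 2 were higher and 0 lower (median -0.04). The higher share of 5.26% was near the 3.31% of all genes. The EXORDIUM family, secreted proteins linked to brassinosteroid growth responses, had 2 of 6 tested members lower, 0 higher and a median of -1.03. EXL2 (AT5G64260) stood at 13.6, 10.9 and 8.73 CPM in mock, 7.2, 5.32 and 4.2 with TORIN1, 12.7, 17.8 and 12.2 with KU63794 and 12.2, 9.78 and 14.1 with AZD8055. All TORIN1 libraries were the lowest of the 12, with a difference of -1.24 (SE 0.21, edgeR adjusted p = 0.00811). EXL4 (AT5G09440) stood at 2.05, 2.28 and 1.82 CPM in mock, 3.4, 1.36 and 2.06 with TORIN1, 4.92, 7.93 and 5.23 with KU63794 and 5.64, 4.64 and 4.73 with AZD8055. It rose with the other compounds and overlapped mock with TORIN1, at a difference of -1.26 (SE 0.26, edgeR adjusted p = 0.0153). Without TORIN1 replicate 2 or 3 the adjusted p was 0.0578 or 0.0627 for EXL2 and 0.0984 or 0.102 for EXL4.

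Of 7 tested CrRLK1L receptor kinases, which sense the state of the cell wall, THE1 and HERK2 were lower and 0 were higher (median -0.43). THE1 (AT5G54380) stood at 4.52, 4.28 and 2.87 CPM in mock, 2.14, 3.62 and 2.29 with TORIN1, 4.46, 5.34 and 5.23 with KU63794 and 6.24, 5.83 and 7.48 with AZD8055. Its TORIN1 libraries were below the other compounds and overlapped mock, with a difference of -1.11 (SE 0.21, edgeR adjusted p = 0.012, 0.0874 without TORIN1 replicate 3). HERK2 differed by -1.32 (SE 0.28, edgeR adjusted p = 0.0194), and each TORIN1 replicate was needed for the call (0.054, 0.0855 and 0.0744 without replicates 1, 2 and 3). The relative FERONIA (FER) differed by -0.43 (95% interval -0.72 to -0.14, edgeR adjusted p = 0.0926) and did not pass. Of 13 fasciclin-like arabinogalactan proteins of the wall, FLA2, FLA8 and FLA13 were lower and 0 higher (median -0.19), and FLA8 lost its call without any of 9 libraries and FLA13 without any of 4. FLA2 (AT4G12730) stood at 4.86, 6 and 5.11 CPM with TORIN1, 7.82, 8.17 and 8.88 with KU63794 and 12.5, 10.4 and 11.3 with AZD8055, against 3.26 to 5.71 in mock. It was raised by the other compounds and spared by TORIN1, with a difference of -0.87 (SE 0.16, edgeR adjusted p = 0.0106, and 0.0506 or 0.0698 without TORIN1 replicate 2 or 3). Without TORIN1 replicate 3, 0 members were called lower in the EXORDIUM, CrRLK1L and fasciclin-like families, and without replicate 2 the counts were 0, 1 and 0. Expansins and xyloglucan enzymes had 4 higher and 1 lower without TORIN1 replicate 1 and 0 of either without replicate 2 or 3. Without TORIN1 replicate 1, the lower counts of the CrRLK1L and fasciclin-like families were 1 each.

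Single genes with steep differences lay mostly at low levels. NDB3 (AT4G21490), an NAD(P)H dehydrogenase, stood at 3.08, 2.95 and 3 CPM in mock, 1.3, 1.58 and 0.688 with AZD8055 and 1.64, 0.471 and 0.83 with KU63794, and no count was seen in any TORIN1 library. Taking 3 counts per library as the floor, it was at least 3.78-fold lower with TORIN1 than with the other compounds (edgeR adjusted p = 0.00715, 0.0515 without TORIN1 replicate 3). AZI1 (AT4G12470), a lipid-transfer-like protein of defence priming, stood at 0.548, 0.571 and 0.912 CPM in mock, 0.486, 0.566 and 0.305 with TORIN1, 2.35, 2.67 and 1.58 with KU63794 and 1.04, 2.17 and 2.24 with AZD8055. It was above mock in each of the 6 and not with TORIN1, at -2.15 (SE 0.41, edgeR adjusted p = 0.012, and 0.0605 or 0.0879 without TORIN1 replicate 2 or 3). RUP1 (AT5G52250), a repressor of the UV-B light response, stood at 0.778, 0.68 and 0.534 CPM with TORIN1 against 1.65 to 3.22 in the 6 others and 1.82 to 2.85 in mock, a difference of -1.63 (SE 0.33, edgeR adjusted p = 0.0144, and 0.0769 or 0.0965 without TORIN1 replicate 2 or 3).

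AAP4 (AT5G63850), an amino acid permease, was the steadiest of the lower genes that all compounds raised. It stood at 27.9, 26.4 and 30.2 CPM in mock, 52.3, 51.5 and 53.4 with TORIN1, 76.5, 78.4 and 78.5 with KU63794 and 87.2, 78.2 and 80.9 with AZD8055. The 3 levels were separate, TORIN1 lying 0.90 log2 units above mock and differing by -0.61 from the other compounds (SE 0.07, edgeR adjusted p = 0.00169), a call that held with any library left out.

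Several gene groups tied to TOR activity gave no call between TORIN1 and the other compounds. Of 9 tested components of the TOR pathway, 0 passed, and their differences lay between -0.13 and 0.17 log2 units. TOR itself (AT1G50030) stood at 113, 121 and 119 CPM in mock, 144, 138 and 125 with TORIN1, 133, 154 and 148 with KU63794 and 135, 148 and 168 with AZD8055. The TORIN1 libraries overlapped those of the other compounds, and the difference was -0.12 (95% interval -0.30 to 0.06, edgeR adjusted p = 0.45). RAPTOR1, the TOR partner that binds substrates, differed by -0.12 (-0.31 to 0.06), LST8-1 by -0.08 (-0.22 to 0.06), the substrate kinase S6K1 by 0.11 (-0.11 to 0.33) and S6K2 by -0.03 (-0.34 to 0.27). For RAPTOR2, YAK1, TAP46 and FKBP12 the values were -0.13 (-0.31 to 0.05), -0.02 (-0.15 to 0.12), 0.17 (-0.03 to 0.37) and 0.01 (-0.22 to 0.25).

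Of 12 low-energy markers, genes known to be induced by sugar starvation, 0 passed although the median difference was -0.75. ASN1, asparagine synthetase, differed by -0.97 (95% interval -1.85 to -0.09, edgeR adjusted p = 0.204) and BT2 by 0.00 (-0.67 to 0.68, 0.997). The group stood at -1.42, -1.44 and -1.09 log2 units from mock in the AZD8055 libraries, -1.14, -0.07 and -1.08 with KU63794 and -1.29, -1.82 and -2.00 with TORIN1. KU63794 replicate 2 was thus at the level of mock while the other 8 inhibitor libraries were below it, and without it the median was -0.54. Without TORIN1 replicate 1 the median was -0.97 and 1 member was called lower, as it was without KU63794 replicate 3 and with the replicate number as a block, and DESeq2 called 3 lower. DIN10, of the same group, differed by -0.75 (-1.28 to -0.23, 0.107).

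No member was called among 20 flavonoid and anthocyanin genes (median 0.25), 18 aliphatic glucosinolate genes (median -0.08) and 28 autophagy genes (median -0.12). The widest intervals were in the first of these groups, as for DFR at 0.46 (-0.19 to 1.11), and the autophagy gene AtATG18a came nearest to the threshold at -0.37 (-0.59 to -0.16, edgeR adjusted p = 0.0512). Families known for handling foreign compounds also gave no call, with 0 of 20 tau glutathione transferases, 0 of 42 UDP-glycosyltransferases and 0 of 118 cytochromes P450, at medians of -0.06, -0.13 and -0.06. The same held for 43 WRKY factors (median -0.20), 10 ethylene response factors (-0.55), 9 MCM replication proteins (0.11), 15 DNA damage genes (0.10) and 9 genes of the mitochondrial retrograde response (-0.07). Of 41 histone genes 1 was lower (2.44%, against 0.708% of all genes). Of 18 iron and copper deficiency genes 2 were higher (11.1%), and of 14 phosphate starvation genes 1 (7.14%), against 3.31% of all genes. A gene that missed the threshold is not shown to respond alike to the compounds.

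The labelled tissue was checked against markers. All 14 LHCB genes had counts in every library, at a summed 13350 to 19380 CPM. Of 11 root markers, 3 to 9 had a count in a library, and their sum was 9.86 to 14.7 CPM in mock, 6.68 to 9.0 with AZD8055, 6.78 to 7.74 with KU63794 and 2.59 to 5.09 with TORIN1, the lowest libraries of the series. One of the 3 root markers tested, PRP3, a wall protein of root hairs, was lower with TORIN1 (-1.90, edgeR adjusted p = 0.037). It lost its call without any of 9 libraries, at up to 0.217 without TORIN1 replicate 3, and was not called against both compounds taken singly. The part of the difference in root RNA in the other results was not tested. The summed level of 10 seed storage genes ranged within each inhibitor group, at 184, 2.15 and 0.953 CPM with TORIN1, 1.09, 215 and 132 with KU63794 and 157, 47.8 and 0.0815 with AZD8055. TORIN1 replicates 2 and 3, without which most calls were lost, were thus low in seed transcripts and replicate 1 was high, and the part of this in the counts was not tested.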

How the data were processed

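The deposited raw gene counts of 12 libraries were used as the authors gave them. Per the submitters' processing notes, the TAIR10 genome, StringTie 1.3.3 and DESeq2 1.18.1 were used upstream; no source used here gives the aligner or the use of strand. Counts were fitted in R 4.3.3 with edgeR 4.0.16 (TMM scaling, default low-count filter, robust quasi-likelihood fit, 1 coefficient per group, 12 libraries), and TORIN1 was contrasted with the mean of AZD8055 and KU63794 on the log2 scale. Benjamini-Hochberg adjustment ran over all tested genes, and for the 3 pairs of compounds over genes and pairs together. Standard errors are implied by the test. Levels are CPM after TMM scaling, with a prior count of 2 for group levels. Positions are from TAIR10.1, which held 32835 of the 33602 IDs.

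Members and gene lists were chosen with earlier results of these data known, and the lists were rebuilt from general knowledge. Genes eligible to be named were called, had a mean of at least 1 CPM and had all TORIN1 libraries outside the range of the 6 others: the 12 with the largest change per direction, 5 per class and up to 4 per list, with type-A regulators and TOR components whatever their values. Alternatives covered scaling, filter, tool (DESeq2 1.42.0, limma 3.58.1 voom), pooling, a replicate block and leaving out each library. The fit was run on simulated counts with known changes as a check of the code. That simulation set equal levels in mock, AZD8055 and KU63794 and changed genes with TORIN1 only, unlike these data, so it is no support for the calls.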

Additional observations from a re-analysis of the deposited data

Results flagged for a closer look

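LHB1B1 (-1.40 log2 units, TORIN1 minus the mean of AZD8055 and KU63794) and LHB1B2 (-1.38) were set apart because TORIN1 and the other compounds moved them in opposite directions from mock and the difference itself passed the test.

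AZD8055 and KU63794, which the comparison pools, differed from each other in 13 genes, and the values here are log2 differences of AZD8055 from KU63794 that passed edgeR's test adjusted over all genes and the 3 pairs. Higher with AZD8055 were AT1G34580 (1.31), AT5G08400 (1.12), AT1G06002 (1.01), TBL26 (0.99), AT5G18840 (0.81), the plastid transcript ATCG00280 (0.78), AT1G80130 (0.77), MGD2 (0.75), the Hsp70 gene AT3G09440 (0.70), AT2G45685 (0.62) and MIOX1 (0.53). MIOX1, myo-inositol oxygenase, stood at 45, 46.1 and 45.8 CPM with TORIN1, 37.9, 43.4 and 40.1 with KU63794 and 57.4, 56.4 and 61.5 with AZD8055, so TORIN1 lay between them. AT2G31100 and AT4G23493 had no count in any AZD8055 library, and their fitted differences of -7.85 and -5.94 depend on the prior count and are no measure of size. AT2G31100 stood at 2.03, 2.98 and 2.57 CPM with KU63794 and AT4G23493 at 0.547, 0.864 and 0.581. Of the 13, 3 also differed between TORIN1 and AZD8055, 2 between TORIN1 and KU63794 and 1 between TORIN1 and their mean.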

How the results depend on the processing

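Under RLE size factors 472 genes were higher and 133 lower, with no filter 557 and 111, with limma voom 549 and 100, and with AZD8055 and KU63794 as 1 group of 6 libraries 569 and 113. Upper-quartile scaling gave 358 higher genes, of which 104 were spared. DESeq2 gave 823 higher and 312 lower, of which 103 were spared and 69 lowered by TORIN1 alone. The 9 inhibitor libraries fitted without mock gave 121 and 43, and no classes could be formed there. Calls against both compounds gave 58 higher (13 spared, 43 lowered less) and 14 lower (2 spared, 6 lowered by TORIN1 alone). The cause of these moves was not tested. With each library left out, counts ran from 42 to 895 higher, 7 to 214 lower, 11 to 313 spared and 26 to 484 lowered less among the higher, and 0 to 72 spared and 4 to 73 lowered by TORIN1 alone among the lower. Replicate numbers did not pair the samples: 3 of 18 same-number and 7 of 36 other-number correlations of deviations were over 0.1, and 5 of 12 libraries correlated best with their own number. With the replicate block, 632 genes were higher and 123 lower. Median differences changed sign for SAUR genes with no filter (-0.058), aliphatic glucosinolate genes without AZD8055 replicate 1 (0.0146, lowest -0.223 without KU63794 replicate 2) and photosystem core subunits without TORIN1 replicate 1 (0.00558, lowest -0.129 without AZD8055 replicate 2). ABC transporters (-0.00667) turned to 0.0101 without TORIN1 replicate 2, and were also just above 0 without KU63794 replicate 2, and the list of cytokinin receptors, phosphotransfer proteins and type-B regulators (-0.0372) to 2.84e-05 without TORIN1 replicate 2. For seed storage markers the median was 0.376 without AZD8055 replicate 1, 0.0814 and 0.123 without TORIN1 replicates 2 and 3, and -5.40 without TORIN1 replicate 1. Genes near or under 1 CPM, such as AZI1, rest on few counts.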
